A study of Mus musculus with 36 samples.

Results

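The comparison described here set 4 mice given 162 µg of tube-shaped titanium dioxide nanoparticles against 3 control mice given 0 µg, all with the lung taken at day 28. Its members were chosen by the dose and time labels and make up 9 of the 36 arrays and 7 of the 29 mice of the study. All mice were female C57BL/6, bought at 5 to 7 weeks of age, and each received a single intratracheal instillation of 40 µl. Other mice received 18 or 54 µg, and lungs were also taken after 24 h (day 1). RNA came from sections taken at random from the lung, and the measurement therefore mixes all cell types of the organ. The extraction label gives 5 per group, while 3 and 4 mice of these groups were on arrays. On each array lung RNA carried Cy5 and a reference RNA of 11 mouse cell lines carried Cy3. A level below is the log2 ratio of lung to reference, a change is the treated mean minus the control mean on that scale, and the levels of different genes cannot be set against each other. The number of mice limits the precision.

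Tube-shaped titanium dioxide is a poorly soluble particle. Particles that reach the alveoli are taken up mainly by macrophages, and material that is not cleared can keep these cells and the airway epithelium in an inflammatory state. Interferons act through STAT and IRF transcription factors on antiviral genes, acute phase proteins such as serum amyloid A are made locally in epithelium and macrophages, and chemokines draw leukocytes from the blood.

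The lung label was checked on surfactant protein gene Sftpc, Sftpb, the club cell secretoglobin Scgb1a1, the alveolar type I marker Ager and the endothelial cadherin Cdh5. Each was above background on 9 of 9 arrays. Log2 Cy5 intensities per mouse ran from 12.59 for the lowest mouse of Cdh5 to 19.11 for the highest of Scgb1a1, against a median of 8.51 over all genes. Between 50% and 63.3% of spots were well above background per array. Transcripts of skeletal muscle, which stand high on 12 arrays of 11 other mice of the study, were low on all 9 arrays here. Cardiac muscle transcripts did vary: the median of the list per mouse, set against the control mean, ran from -1.74 to 0.87 in control mice and from -1.7 to 0.89 in treated mice, and 0 of its 12 tested genes were called. Their part in the results was not tested.

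The labels of treated mouse 1 need care. Its 2 arrays, on slides 1 and 5, share a sample number and a time label of day 28, while both titles give day 1. It was kept in day 28. Its arrays also differed from each other: the median of the interferon response list stood 0.14 above the control mean on slide 1 and 1.8 on slide 5, while the other treated mice lay between 1.39 and 1.69 and the 4 control arrays between -0.11 and 0.15. Control mouse 1 was hybridised on the same 2 slides, and its arrays gave -0.08 on slide 1 and 0.15 on slide 5. Across genes, which are not independent replicates, the 2 arrays of treated mouse 1 correlated at r = 0.967, and its slide 5 array correlated at 0.975 with another treated mouse. In the study 7 mice were on 2 arrays, with r between 0.818 and 0.968, and for 7 of the 7 at least 1 array correlated more closely with another mouse of the group. Values for mouse 1 are the mean of its 2 arrays unless an array is named, and results that rest on the choice are given with each array alone.

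Which transcripts still differed 28 days after the high dose was tested over 23256 genes. Of these, 146 (0.628%) were called at an adjusted p under 0.05 (limma, Benjamini-Hochberg over all genes tested): 144 (0.619%) were higher in treated lungs and 2 (0.0086%) lower. Before adjustment, p lay under 0.05 for 796 higher (3.42%) and 317 lower (1.36%). A symbol was known for 126 of the called genes, and 86 rose at least 2-fold. In all 146 the 2 groups did not overlap between mice. Over all genes every treated mouse lay above every control mouse for 1374 genes (5.91%) and below for 829 (3.57%), and the median change was 0. With mouse 1 taken by its slide 5 array alone 188 genes were called, with its slide 1 array alone 53, and without the mouse 106. Without control mouse 1, 2 or 3 the count was 73, 65 or 78, and without treated mouse 2, 3 or 4 it was 84, 114 or 128. The treated and control arrays shared 4 slides, and 141 of the 146 genes kept their sign within each. These genes were called on the same arrays without overlap between mice, which favours a kept sign. The plot of all genes shows that the called genes lie almost wholly on the side of higher expression.

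**Figure D1:**
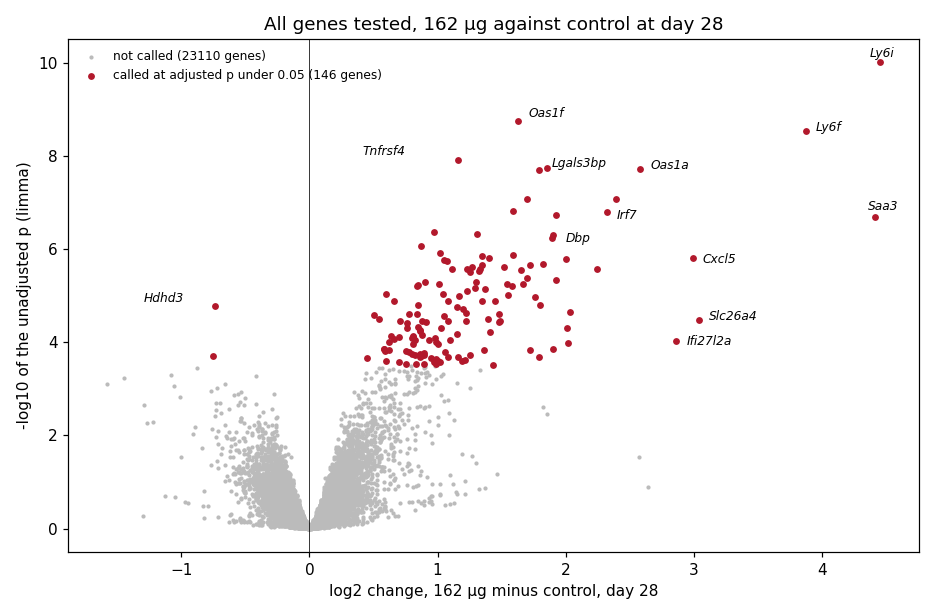
Change of each of 23256 genes (x axis, log2, 162 µg minus control at day 28) against -log10 of its unadjusted p (y axis, limma). Red points are the 146 called genes, of which 144 lie right of 0; the farthest right are Ly6i at 4.45 and Saa3 at 4.41.

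The largest rises were those of Ly6i and Saa3. Ly6i, which encodes a small surface protein anchored to the membrane by a lipid, lay at 0.61, 0.47 and 0.5 in control mice 1 to 3 and at 4.89, 5.73, 4.65 and 4.67 in treated mice 1 to 4. The groups were far apart, with treated mouse 2 the highest, and the change was 4.45 ± 0.41 (SE, 3 and 4 mice), a 21.9-fold rise with adjusted p = 2.28e-06 (limma). Its neighbour in the family, Ly6f, lay at 0.62, 0.15 and 0.53 in controls and at 4.35, 4.78, 3.98 and 4.1 in treated mice. It rose by 3.87 ± 0.42 (adjusted p = 2.24e-05, limma). These 2 were the only called genes of 13 tested Ly6 genes (0.619% higher over all genes), whose median change was 0.06. Their sequences are alike and each probe may read both transcripts, which was not tested.

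Saa3, a serum amyloid A made outside the liver, lay at -3.56, -3.55 and -3.71 in control mice and at 0.48, 0.64, 2 and 0.1 in treated mice. The groups were far apart, with treated mouse 3 the highest, and the change was 4.41 ± 0.61 (21.3-fold, adjusted p = 0.000366, limma). Acod1, whose product makes the antimicrobial metabolite itaconate in activated macrophages, lay at -3.4, -3.28 and -4.01 in controls and at -0.89, -0.87, -0.97 and -1.98 in treated mice, a rise of 2.39 ± 0.31 (adjusted p = 0.000222). It passed background on 3 of 4 control arrays, so its fold of 5.23 leans partly on a dim signal. Noxo1, the organizer of an epithelial NADPH oxidase, rose by 1.82 ± 0.29 (adjusted p = 0.00178). Lower in the order came AA467197, at 2.02 (adjusted p = 0.0225), whose call was lost without any of control mice 1 to 3 or treated mice 1 to 3 (adjusted p 0.0566 to 0.152), with mouse 1 by its slide 1 array (0.0659) or moved to day 1 (0.0594), and with scanner-processed signals (0.799). Ly6i, Ly6f, Saa3, Acod1 and Noxo1 stayed called when any of the 7 mice was left out and with either array of mouse 1. The plot by array shows the same separation for each of these genes.

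**Figure D2:**
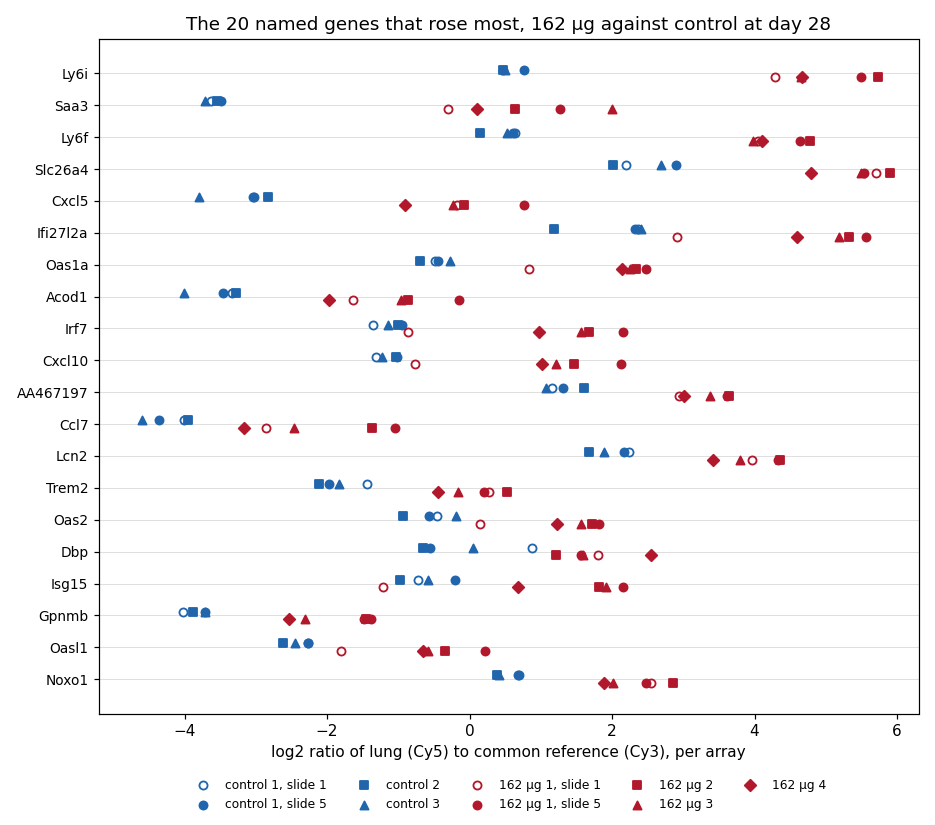
Log2 ratio of lung to reference on each of the 9 arrays (x axis) for the 20 genes with the largest rises among those named (y axis). Blue symbols are controls, red symbols 162 µg, and open circles are the slide 1 arrays of mouse 1 of each group; Ly6i lies at 0.47 to 0.76 on control arrays and at 4.28 to 5.73 on treated arrays, while for Isg15 the treated slide 1 array, at -1.21, lies below the controls.

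Of all lists examined, the interferon response list held the most called genes: 18 of its 23 tested members were higher and 0 lower, against 0.619% higher over all genes, and its median change was 1.52 against 0. All 23 members had a change above 0, and for 22 every treated mouse lay above every control mouse, where this held for 5.91% of all genes. The list was made with earlier results of these data known. Mx1, Mx2 and Oas1g were listed and not tested here.

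The oligoadenylate synthetases, enzymes that sense double-stranded RNA and activate RNase L, led the list. Oas1a lay at -0.46, -0.7 and -0.28 in control mice and at 1.66, 2.34, 2.25 and 2.14 in treated mice, a change of 2.58 ± 0.31 (adjusted p = 6.66e-05, limma). Oas2 rose by 1.92, Oas3 by 0.97 and the related Oasl1 and Oasl2 by 1.85 and 1.72, with adjusted p between 6.66e-05 and 0.00178. Of the 8 genes tested with such a name 6 were called (0.619% higher over all genes). Oas1f was among them at 1.63, and the other 2 changed by 0.29 and 0.38. Oas1a and Oas1f are close relatives and their probes may share signal, which was not tested.

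Among regulators, Irf7, the factor that amplifies type I interferon production, lay at -1.15, -1 and -1.15 in controls and at 0.64, 1.68, 1.57 and 0.97 in treated mice, a change of 2.32 ± 0.32 (adjusted p = 0.000345). Stat2, a subunit of the factor through which type I interferon acts, rose by 1.11 (adjusted p = 0.00178). Zbp1, a sensor of left-handed nucleic acid, rose by 1.59, Usp18, a brake on interferon receptor signalling, by 1.58, and the RNA sensor Ifih1 by 0.87. A second probe of Ifih1 changed by 0.19. Antiviral effectors rose too. Isg15, a ubiquitin-like protein, lay at -0.47, -0.98 and -0.58 in controls and at 0.47, 1.82, 1.92 and 0.68 in treated mice, a change of 1.9 ± 0.42 (adjusted p = 0.03). Ifit1 rose by 1.67, Ifi44 by 1.65, Rtp4 by 1.54, Rsad2, which encodes viperin, by 1.52, Gbp3 by 1.23, Ifit3 by 1.2 and Igtp by 0.83, with adjusted p between 0.00178 and 0.0481. Members that were not called included Ifit2 at 0.89, Ddx58 at 0.67, Gbp2 at 0.47 and Iigp1 at 0.46, with adjusted p from 0.0934 to 1.

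Treated mouse 1 was the lowest of the 4 treated mice for 18 of the 18 called interferon genes. Its slide 1 array lay below the other treated arrays for all 18. Its slide 5 array lay above them for some, such as Irf7, and among them for others, such as Oasl2 at 3.09 against 2.74 to 3.3. On slide 1 Irf7 lay at -0.86, just above the 4 control arrays (-1.35 to -0.95), and on slide 5 at 2.15. Isg15 lay at -1.21 on slide 1, below the controls at -0.98 to -0.2, and at 2.15 on slide 5. Of the 18 genes, 9 lay above every control array on slide 1, with a median of 0.2 above the control mean, and 18 on slide 5, with a median of 2.05. The other treated arrays had 18 of 18 above every control array, with medians from 1.49 to 1.84. The called genes outside the list divided less: 109 of 126 lay above every control array on slide 1 (median 0.58) and 126 of 126 on slide 5 (median 1.3). All these genes were called with no overlap between mice, so counts of 18 or 126 on arrays other than slide 1 are favoured by that selection. With mouse 1 by its slide 1 array, 4 members (Oas1a, Oas2, Oasl1 and Zbp1) were called and the other 14 had adjusted p from 0.0569 to 0.632. By its slide 5 array 19 were called, and without the mouse 18. Leaving out another mouse gave 14 to 16 calls, and Isg15, Ifih1, Igtp and Ifit3 were the members lost. Isg15 fell out without any mouse but treated 1 and 4 (adjusted p 0.0929 to 0.225), Ifih1 and Igtp without any but treated 1 (0.0977 to 0.296), and Ifit3 without control 1 (0.0587). With slide as a block Isg15 and Igtp were lost (0.119 each), as with all arrays and the mouse as a random block (0.0768 and 0.0531). Igtp and Ifih1 were also lost with scanner-processed signals (0.139 and 0.129), median centring (0.323 and 0.308), the deposited value table (0.0862 and 0.101) and no filter on dim genes (0.067 and 0.0508). Ifih1 fell out as well with the mean over all probes of a gene (0.167) and with mouse 1 moved to day 1 (0.0596).

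**Figure D3:**
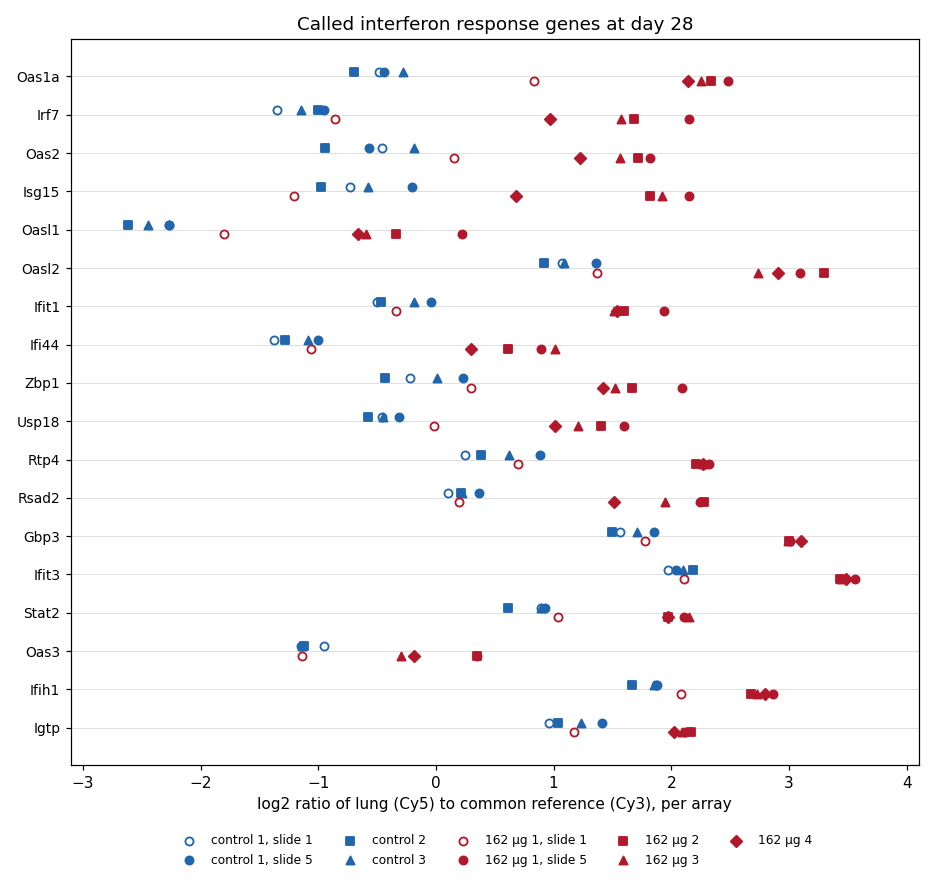
Log2 ratio of lung to reference on each of the 9 arrays (x axis) for the 18 called interferon response genes, ordered by change (y axis). Open circles are the slide 1 arrays of mouse 1 of each group; the open red circle lies left of the other 4 treated arrays in each row, just above the controls for Irf7 at -0.86 and between the controls (-0.7 to -0.28) and the other treated arrays (2.14 to 2.48) for Oas1a at 0.83.

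Promoters of interferon genes carry the interferon-stimulated response element, to which IRF and STAT factors bind, and these letters were looked for because the list moved together. Promoters from RefSeq (GRCm38.p6, 250 bases before to 50 after the start) were searched on both strands for GAAA, any 2 bases and GAAA again. Of the 18 called members 14 had a promoter in the table, and 10 of these (71.4%) held the letters, as did 12 of the 17 tested members with a promoter (70.6%). Over all genes of the table the share was 3.99%, and over the tested genes 3.8%. Outside the list, 19 of the 77 called higher genes with a promoter held it (24.7%). The bases before the start are shown for 7 genes, 5′ to 3′ on the strand of the gene, with matches in capitals. Matches are in 6 of them: Oas1a, Isg15, Ifit1 and Rsad2 of the list, and the chemokine gene Cxcl10 and Saa3 from outside it. Irf7 shows a called member with none. In the genome Oas1a is chr5:120907526-120907775 on the minus strand, Isg15 is chr4:156200819-156201068 on the minus strand and Ifit1 is chr19:34640639-34640888 on the plus strand. Rsad2 is chr12:26456453-26456702 on the minus strand, Cxcl10 is chr5:92348890-92349139 on the minus strand, Irf7 is chr7:141266425-141266674 on the minus strand and Saa3 is chr7:46715677-46715926 on the minus strand.
Oas1a: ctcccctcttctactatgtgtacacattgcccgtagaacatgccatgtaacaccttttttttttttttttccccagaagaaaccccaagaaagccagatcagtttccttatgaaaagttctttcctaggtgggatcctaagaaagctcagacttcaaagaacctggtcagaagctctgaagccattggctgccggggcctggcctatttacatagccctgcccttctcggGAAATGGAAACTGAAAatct
Isg15: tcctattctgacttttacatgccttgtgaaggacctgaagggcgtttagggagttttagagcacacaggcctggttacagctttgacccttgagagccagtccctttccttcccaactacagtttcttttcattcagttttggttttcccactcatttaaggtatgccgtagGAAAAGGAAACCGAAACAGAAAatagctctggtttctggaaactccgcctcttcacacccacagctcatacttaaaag
Ifit1: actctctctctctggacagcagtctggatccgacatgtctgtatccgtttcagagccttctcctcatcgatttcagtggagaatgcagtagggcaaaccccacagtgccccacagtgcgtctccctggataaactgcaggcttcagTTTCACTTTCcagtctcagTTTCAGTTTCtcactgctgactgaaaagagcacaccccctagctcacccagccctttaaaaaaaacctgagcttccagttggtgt
Rsad2: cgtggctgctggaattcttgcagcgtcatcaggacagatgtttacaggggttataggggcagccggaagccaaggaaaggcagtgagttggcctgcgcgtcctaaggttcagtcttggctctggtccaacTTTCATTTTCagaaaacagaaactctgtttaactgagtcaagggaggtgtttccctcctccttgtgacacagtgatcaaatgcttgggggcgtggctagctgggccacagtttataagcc
Cxcl10: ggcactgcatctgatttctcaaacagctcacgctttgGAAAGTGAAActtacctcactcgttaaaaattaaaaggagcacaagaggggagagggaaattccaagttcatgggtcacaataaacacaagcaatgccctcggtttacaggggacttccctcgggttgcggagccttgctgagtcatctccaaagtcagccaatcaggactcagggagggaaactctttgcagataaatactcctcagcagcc
Irf7: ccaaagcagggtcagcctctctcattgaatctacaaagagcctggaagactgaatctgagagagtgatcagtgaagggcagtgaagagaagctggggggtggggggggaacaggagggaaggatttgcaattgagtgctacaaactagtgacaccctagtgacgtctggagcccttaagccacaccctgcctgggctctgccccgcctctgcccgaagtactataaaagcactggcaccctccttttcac
Saa3: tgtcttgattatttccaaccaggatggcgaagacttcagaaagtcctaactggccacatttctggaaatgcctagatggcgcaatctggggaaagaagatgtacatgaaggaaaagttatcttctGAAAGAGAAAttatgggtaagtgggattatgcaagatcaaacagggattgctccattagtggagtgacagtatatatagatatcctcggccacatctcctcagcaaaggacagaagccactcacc
In Oas1a and Isg15 the matches overlap into 1 run of capitals, and in Ifit1 and Rsad2 the letters lie on the other strand, read as TTTC, any 2 bases and TTTC. Slc26a4, another gene outside the list, holds a match as well, and Oasl1, Oasl2 and Ifi44 of the list do not. The AP-1 letters TGANTCA were in 20 of the 91 called higher genes with a promoter (22%, against 8.97% over the table), the C/EBP letters TTGCNNAA in 17 (18.7%, against 12.2%) and the PU.1 letters GAGGAAGT in 8 (8.79%, against 3.69%). The STAT letters TTCCNGGAA were in 0 of the 91 (against 1.35%) and the clock E-box CACGTG in 3 (3.3%, against 8.09%). Lysosomal letters TCACGTGA were in 0 (against 1.12%) and sterol letters TCACNCCAC in 1 (1.1%, against 1.44%). NF-kB letters of 10 and 9 bases were in 2 and 4 (2.2% and 4.4%, against 0.466% and 1.92%). A match is a description of the letters and not a site.

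More genes named for interferon induction or known to answer it were called outside the list, and the families below were gathered after their values were seen. For the counts in these families, 0.619% of all genes were called higher. Ifi27l2a lay at 2.34, 1.19 and 2.4 in control mice and at 4.23, 5.33, 5.18 and 4.6 in treated mice, a change of 2.86 ± 0.61 (adjusted p = 0.021). It was lost without control mouse 1, 2 or 3 or treated mouse 2 or 3 (adjusted p 0.0602 to 0.229), and with mouse 1 by its slide 1 array (0.138). Lgals3bp, a secreted scavenger receptor family protein, rose by 1.79 ± 0.22 (adjusted p = 6.66e-05) and Siglec1, a sialic acid receptor of macrophages, by 1.35 ± 0.21 (adjusted p = 0.00159). Both stayed called when any mouse was left out, but Siglec1 was lost with scanner-processed signals (0.139), and its second probe changed by 0.3. Of 8 tested genes of the PYHIN family of nucleic acid sensors, Ifi204, Ifi207 and Ifi211 were called with rises of 1.08 to 1.76, and each was lost without control mouse 2 (adjusted p 0.0579 to 0.0673), Ifi207 also without control 1 (0.0549), and all 3 with mouse 1 by its slide 1 array (0.0742 to 0.133). A second probe of Ifi207 changed by 0.51 beside 1.08. Of 9 Schlafen genes 4 were called at 0.89 to 1.32 (Slfn2, Slfn4, Slfn8 and Slfn10-ps), of which all but Slfn2 stayed called when any mouse was left out and with the slide 1 array. Slfn2 was lost without any mouse but treated 3 (0.0801 to 0.265) and with that array (0.216), and under 8 more settings (0.0502 to 0.187). The 3 tested Phf11 genes rose by 0.98 to 1.29, and Phf11b fell out without any mouse but treated 3 (0.0801 to 0.341). With the slide 1 array Phf11a, Phf11b and Phf11d had adjusted p of 0.103, 0.282 and 0.0684, and with slide as a block Phf11b had 0.0769. Apol9a and Apol9b rose by 1.27 and 1.25 (adjusted p 0.0959 and 0.132 with the slide 1 array), and their probes may share signal.

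MHC class I molecules present peptides from inside the cell to CD8 T cells. Of 17 tested class I genes, beta-2 microglobulin B2m included, 8 were called (0.619% higher over all genes) with rises between 0.8 and 1.15, 15 had a change above 0, and the median was 0.83. H2-K1, a classical class I heavy chain, lay at 2.74, 2.71 and 2.74 in controls and at 3.81, 4.04, 3.43 and 3.61 in treated mice, a change of 0.99 ± 0.21 (adjusted p = 0.0218). The spread of the controls was narrow. B2m rose by 0.97 (adjusted p = 0.0436) and Nlrc5, the transactivator of class I genes, by 0.86 (adjusted p = 0.0372). Each of the 8, and Nlrc5, lost its call without at least 3 of the mice (H2-K1 without any but treated 3 and 4, adjusted p 0.0722 to 0.124, B2m without any but treated 3, 0.0981 to 0.229, Nlrc5 without any but treated 4, 0.0538 to 0.258), and each with mouse 1 by its slide 1 array (0.0977 for H2-K1, 0.108 for B2m and 0.38 for Nlrc5). H2-K1, B2m and Nlrc5 were also lost with scanner-processed signals (0.0538, 0.113 and 0.139), median centring (0.0701, 0.147 and 0.126), mouse 1 moved to day 1 (0.32, 0.253 and 0.0757) and the deposited value table (0.0633, 0.151 and 0.0657), and Nlrc5 with slide as a block (0.0574). Class I genes are near copies of each other, so a probe may read several, and H2-Q10 had a second probe at 0.05 beside 0.8. For Nlrc5 a second probe changed by 0.29 beside 0.86.

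Acute phase genes were higher in part. Of 20 tested, 4 were called, all higher (20%, against 0.619% over all genes), 19 had a change above 0, and the median change was 0.42. Beside Saa3, Lcn2, which encodes lipocalin that binds bacterial siderophores, lay at 2.2, 1.68 and 1.89 in controls and at 4.14, 4.35, 3.79 and 3.41 in treated mice, a change of 2 ± 0.32 (adjusted p = 0.00159). It stayed called when any mouse was left out. Itih4, an inter-alpha-trypsin inhibitor chain, rose by 1.49 (adjusted p = 0.0104) and Saa1 by 1.79 (adjusted p = 0.037). Itih4 was lost without control 2, control 3 or treated 2 (0.0523 to 0.0821), and Saa1 without any mouse but treated 4 (0.0649 to 0.229) and with mouse 1 by its slide 1 array (0.116). Saa1 was also lost with slide as a block (0.0619), with mouse 1 moved to day 1 (0.761) and under 4 more settings (0.0535 to 0.0663), and Itih4 with scanner-processed signals (0.17). Saa2 was above background on 2 of 5 treated and 0 of 4 control arrays and changed by 0.54 (adjusted p = 0.947). The fibrinogen chains Fga, Fgb and Fgg, which the liver makes, changed by 0.06, 0.21 and 0.07 (adjusted p = 1 each).

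Complement had 2 called genes of 19 (10.5%, against 0.619% higher over all genes, median change 0.35). Factor B, Cfb, of the alternative pathway lay at 3.53, 3.38 and 3.58 in controls and at 4.5, 4.95, 4.7 and 4.52 in treated mice, with no overlap and a narrow spread in both groups. It rose by 1.17 ± 0.21 (adjusted p = 0.00426) and stayed called when any mouse was left out. C4b rose by 0.78 (adjusted p = 0.0322), a call lost without any mouse but treated 1 and 4 (0.0799 to 0.192) and with mouse 1 by its slide 1 array (0.147), scanner-processed signals (0.0812) or median centring (0.106). The central component C3 changed by 1.08 (adjusted p = 0.168), and the C1q chains by 0.52 to 0.85 (adjusted p 0.957 to 1).

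Among CXC chemokines 3 of 12 were called, all higher (25%, against 0.619% over all genes, median change 0.29). Cxcl5, a neutrophil attractant of epithelium, lay at -3.03, -2.83 and -3.8 in controls and at 0.29, -0.08, -0.24 and -0.9 in treated mice, a 7.92-fold rise of 2.99 ± 0.47 (adjusted p = 0.00159). It stayed called when any mouse was left out, with 3 of 4 control arrays above background. Cxcl10 and Cxcl9, interferon-induced ligands of the receptor CXCR3, rose by 2.24 ± 0.37 (adjusted p = 0.00178) and 1.43 ± 0.34 (adjusted p = 0.0499). A second probe of Cxcl9 changed by 0.67. Cxcl10 stayed called when any mouse was left out, yet lay at -0.76 on slide 1 and 2.13 on slide 5 in mouse 1, against -1.31 to -1.02 on control arrays, and had adjusted p = 0.0888 with the slide 1 array. Cxcl9 passed background on 1 of 4 control arrays and was lost without any mouse but treated 4 (0.0698 to 0.271) and with the slide 1 array (0.162), and under 7 more settings (0.0529 to 0.137). Cxcl1, another neutrophil attractant, changed by 0.66 (adjusted p = 0.283), and the B cell attractant Cxcl13 by 0.3 (adjusted p = 1).

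Among CC chemokines 3 of 14 were called, all higher (21.4%, against 0.619% over all genes, median change 0.63). Ccl7, a monocyte attractant, lay at -4.18, -3.95 and -4.6 in controls and at -1.95, -1.37, -2.47 and -3.16 in treated mice, a rise of 2.01 ± 0.41 (adjusted p = 0.0134). Ccl2, which acts on the same receptor, CCR2, rose by 1.72 ± 0.38 (adjusted p = 0.0304) and Ccl9 by 1.21 ± 0.28 (adjusted p = 0.0428). Each lost its call without at least 4 of the mice: Ccl7 without control 1, control 3, treated 1 or treated 2 (0.053 to 0.125), and Ccl2 and Ccl9 without any but treated 4 (0.0501 to 0.281 and 0.087 to 0.272). With mouse 1 by its slide 1 array their adjusted p were 0.0704, 0.104 and 0.0836. Ccl2 and Ccl9 were also lost with mouse 1 moved to day 1 (0.107 and 0.12), and Ccl9 with scanner-processed signals (0.0658), no filter on dim genes (0.0608), the deposited value table (0.0535) and control mouse 1 by its slide 5 array (0.0511). Ccl8 lay at 1.18, 1.51 and 1.32 in controls and at 3.27, 4.06, 3.74 and 1.55 in treated mice. Mouse 4 was near the controls, and the change of 1.82 was not called (adjusted p = 0.218, and 0.0215 at 2.35 without mouse 4). Ccl17, a Th2 attractant, changed by 0.41 (adjusted p = 1). Of 18 chemokine receptors 1 was called (5.56%, median change 0.01), Cxcr1, at 0.39, 0.67 and 0.67 in controls and 1.9, 2.05, 1.91 and 1.93 in treated mice. It rose by 1.37 ± 0.24 (adjusted p = 0.00329), kept when any mouse was left out, while Cxcr2 changed by 0.26 (adjusted p = 1). None of 14 tested cytokines was called (0.619% over all genes, median change 0.2): Il1b changed by 0.58, Tnf by 0.45 and Csf2 by 0.96, with adjusted p of 1, 0.61 and 0.0948.

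Of 24 genes with which phagocytes take up and handle lipid and particles, 5 were called, all higher (20.8%, against 0.619% over all genes), 24 had a change above 0, and the median change was 0.5. In bulk tissue more cells of a type and more RNA per cell cannot be told apart. Trem2, a macrophage receptor for lipids and debris, lay at -1.71, -2.11 and -1.84 in controls and at 0.24, 0.53, -0.16 and -0.45 in treated mice, a 3.79-fold rise of 1.92 ± 0.33 (adjusted p = 0.00272). Gpnmb, a glycoprotein of lipid-laden macrophages and stressed lysosomes, lay at -3.87, -3.88 and -3.72 in controls and at -1.43, -1.46, -2.31 and -2.53 in treated mice, a rise of 1.89 ± 0.28 (adjusted p = 0.000802). Both stayed called when any mouse was left out and with either array of mouse 1. Treated mice 3 and 4 were the lower for both, and the groups did not overlap. The protease Ctsk rose by 1.22 (adjusted p = 0.0104), the endosomal glycoprotein Cd68 by 0.8 (adjusted p = 0.0347) and the receptor Cd84 by 0.89 (adjusted p = 0.0357). Ctsk was lost without control 1, control 2 or treated 2 (0.0535 to 0.0752), Cd68 without any but treated 3 and 4 (0.0801 to 0.175) and Cd84 without any but treated 3 (0.0714 to 0.22). A second probe of Cd84 changed by -0.1. With mouse 1 by its slide 1 array Cd68 had adjusted p = 0.0952 and Cd84 0.0681. With scanner-processed signals Ctsk, Cd68 and Cd84 had 0.0605, 0.102 and 0.471, and with mouse 1 moved to day 1 Cd68 and Cd84 had 0.0833 and 0.102. Spp1 changed by 0.82 (adjusted p = 0.0839), the elastase Mmp12, whose control level was not above background on any array, by 0.67 (0.0792) and the scavenger receptors Marco and Msr1 by 0.82 and 0.84 (0.74 and 0.218).

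Of 24 lysosomal genes 0 were called, 22 had a change above 0 (11657 of 23256 over all genes), and the median change was 0.27. Cathepsin S, Ctss, changed by 1.03 (adjusted p = 0.0724) and cathepsin D, Ctsd, by 0.78 (0.072). Among 19 pattern receptors and inflammasome genes 2 were called (10.5%, against 0.619% higher over all genes, median change 0.35). They were Clec4d, a lectin for mycobacterial lipid, at 1.41 (adjusted p = 0.0156) and Casp4, the caspase that binds lipopolysaccharide, at 0.62 (0.0223). Clec4d was lost without control 1, control 3, treated 1 or treated 2 (0.0535 to 0.135) and Casp4 without any but control 1 and treated 4 (0.0574 to 0.21). Casp4 also missed the threshold with mouse 1 by its slide 1 array (0.0742), scanner-processed signals (0.113) and median centring (0.187), and both genes with mouse 1 moved to day 1 (0.114 for Casp4 and 0.0903 for Clec4d). Other called genes of myeloid cells were chosen after their values were seen. The receptors Lilrb4a and Lilr4b, which are near copies, rose by 1.7 and 1.59 (adjusted p 0.000222 and 0.000345). The cytokine receptor beta chains Csf2rb and Csf2rb2 rose by 0.84 and 0.9 (0.00302 and 0.00284). These 4 stayed called when any mouse was left out. Ch25h, which makes an oxysterol, rose by 1.39 (adjusted p = 0.00993) and was lost without control 1, control 2 or treated 2 (0.0518 to 0.111). In the lists of cholesterol synthesis (23 tested, median change 0.11) and alternative activation (14 tested, median change 0.29) 0 genes were called, with Arg1 at 0.13 and Chil3 at 0.32 (adjusted p = 1 each).

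Of 16 tested T cell markers 4 were called, all higher (25%, against 0.619% over all genes, median change 0.25). These 4 are known from regulatory and activated T cells. Tnfrsf4, which encodes the costimulatory receptor OX40, lay at 0.62, 0.89 and 0.62 in controls and at 2.13, 2.12, 1.76 and 1.47 in treated mice, a rise of 1.16 ± 0.14 (adjusted p = 6.66e-05). Il2ra, the alpha chain of the interleukin 2 receptor, lay at 0.52, 0.54 and 0.55 in controls and at 1.17, 1.46, 1.14 and 1.02 in treated mice, a rise of 0.66 ± 0.12 (adjusted p = 0.00515). Both stayed called when any mouse was left out, and Il2ra was lost with scanner-processed signals (0.399). Tnfrsf18, which encodes GITR, rose by 0.78 (adjusted p = 0.00843, and 0.0644 without control mouse 1, 0.123 with treated mouse 1 moved to day 1 and 0.093 with median centring). Foxp3, the factor of regulatory T cells, rose by 0.58 (adjusted p = 0.029), passed background on 2 of 4 control arrays, and was lost without any mouse but treated 3 (0.0547 to 0.217) and with mouse 1 by its slide 1 array (0.116), scanner-processed signals (0.151), the deposited value table (0.069) or mouse 1 moved to day 1 (0.18). The pan-T markers Cd3d, Cd3e and Cd3g changed by 0.24, -0.03 and 0.27, Cd4 by 0.18 and Cd8a by 0.11 (adjusted p = 1 each). Pdcd1, the checkpoint receptor PD-1, was called outside the list at 1.4 ± 0.22 (adjusted p = 0.00159) and kept its call when any mouse was left out, with 1 of 4 control arrays above background.

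Markers of the other cells a lung section holds were mostly not called. All 12 tested NK and cytotoxic markers had a change below 0 with a median of -0.36, and 0 were called, with Gzma at -0.77 (adjusted p = 1) and Tbx21 at -0.72 (0.111). Their list medians per mouse were -0.44, -0.24, -0.34 and -0.21 in treated mice and -0.07, -0.1 and 0.13 in controls. The lower doses at day 28 gave similar list medians against the same controls, -0.44 at 54 µg and -0.28 at 18 µg. In the lists of B and plasma cells, dendritic cells and class II, neutrophils, alveolar macrophages, monocytes and interstitial macrophages, type I and type II alveolar cells, club cells, ciliated cells and endothelium 0 genes were called, with medians from -0.14 for club cells to 0.27 for monocytes and interstitial macrophages. S100a8 and S100a9, abundant neutrophil transcripts, changed by 0.12 and 0.03, and the alveolar macrophage markers Siglecf and Pparg by -0.11 and 0.24 (adjusted p = 1 each). In the list of mast cells, basophils and eosinophils 1 of 9 was called (11.1%, against 0.619% higher over all genes). It was the ribonuclease Ear6, which rose by 1.07 ± 0.17 (adjusted p = 0.00164) with 3 of 4 control arrays above background. Cd200r2 passed background on 0 of 4 control and 5 of 5 treated arrays, and rose by 0.7 (adjusted p = 0.0188). Its control level was thus not measured, and no fold is given. It was lost without control 2, control 3, treated 1 or treated 2 (0.0722 to 0.141), and with the 2 groups alone (0.0796) or mouse 1 moved to day 1 (0.297). The plot of gene lists shows how far the interferon list stands from the other lists plotted. Muscle, squamous epithelium, adipocyte and red blood cell lists were left out of it.

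**Figure D4:**
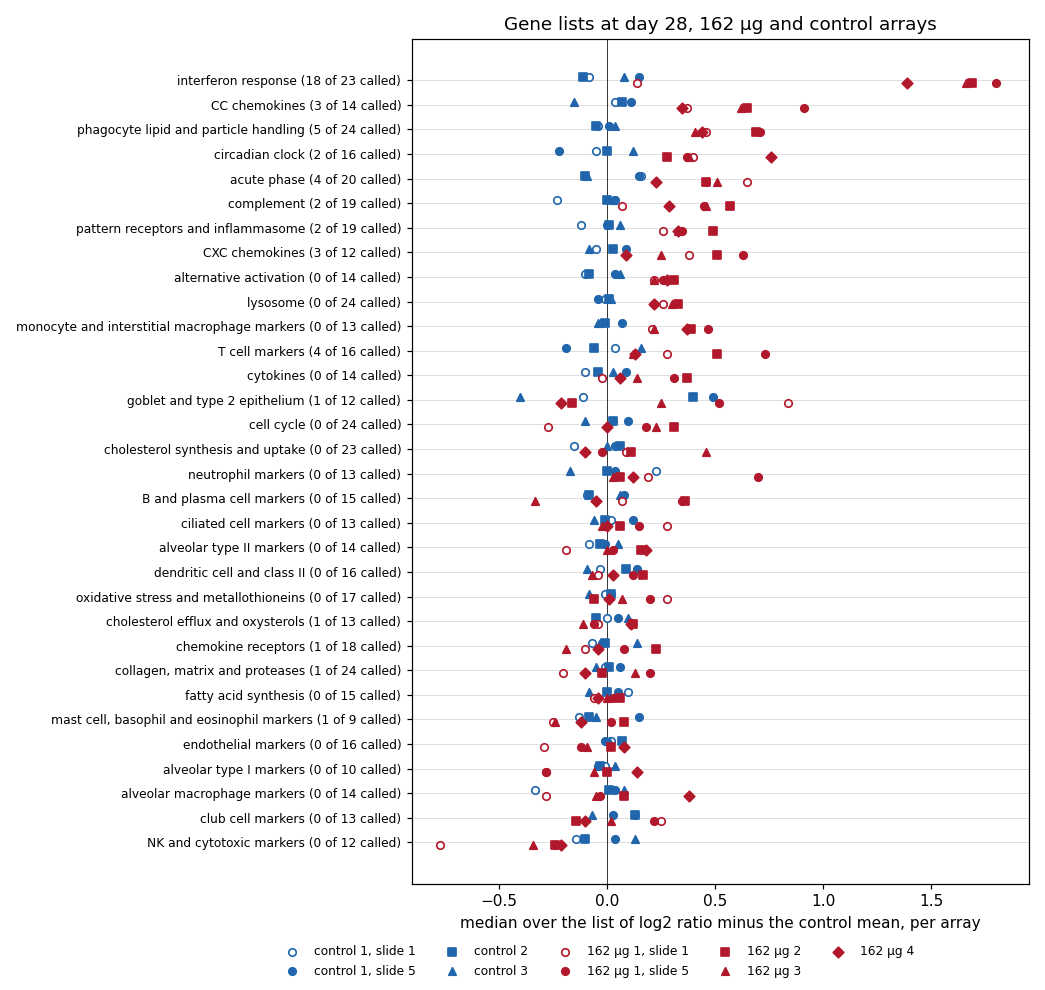
Median over each gene list shown of the log2 ratio minus the control mean (x axis) on each of the 9 arrays, with the called and tested members beside the list's name. Lists of skeletal muscle, cardiac muscle, squamous epithelium, adipocytes and red blood cells are not shown. Of these, cardiac muscle ran from -1.74 to 1.32 over the arrays, and adipocyte reached 1.17 and 1.31 on the arrays of treated mouse 1. The interferon response list lies at 1.39 to 1.8 on 4 treated arrays and at 0.14 on the slide 1 array of treated mouse 1 (open red circle), and the control arrays of that list lie at -0.11 to 0.15.

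In the epithelium, 1 of 12 genes of the goblet and type 2 response was called (8.33%, against 0.619% higher over all genes). Slc26a4, pendrin, an anion exchanger of airway epithelium, lay at 2.54, 2.01 and 2.68 in controls and at 5.62, 5.9, 5.5 and 4.79 in treated mice, an 8.24-fold rise of 3.04 ± 0.6 (adjusted p = 0.0104). The groups did not overlap, yet the call was lost without control mouse 1 or 2 (0.0516 and 0.0927). Of 24 matrix genes and proteases 1 was called (4.17%, median change 0.01), the adhesion protein Tgfbi at 0.76 (adjusted p = 0.0134), lost without any control mouse or treated 2 (0.0673 to 0.0923) and with mouse 1 by its slide 1 array (0.0544) or median centring (0.17). Timp1, an inhibitor of matrix proteases, lay at -2.45, -2.6 and -2.6 in controls and at -1.76, -1.51, -0.94 and -2.15 in treated mice, and its change of 0.96 was not called (adjusted p = 0.647).

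Of 16 clock genes tested 2 were called, both higher (12.5%, against 0.619% over all genes, median change 0.45). Dbp, an output factor of the circadian clock, lay at 0.16, -0.66 and 0.05 in controls and at 1.68, 1.21, 1.59 and 2.54 in treated mice, a rise of 1.9 ± 0.28 (adjusted p = 0.000735), kept when any mouse was left out and with either array of mouse 1. A second probe gave 1.81. Nr1d1, a repressor within the clock, lay at 1.31, 0.79 and 0.93 in controls and at 1.81, 1.69, 1.79 and 2.39 in treated mice, a rise of 0.91 ± 0.18 (adjusted p = 0.0105, and 0.0803 to 0.13 without control mouse 2 or 3). Nr1d1 was also lost with control mouse 1 by its slide 1 array (0.0767), with the 2 groups alone (0.0563) and with median centring (0.125). Treated mouse 4 was the highest for both. Against the same controls, Dbp changed by 1.32 and Nr1d1 by 0.65 at 54 µg (adjusted p = 0.749 each, limma). The 54 µg mice lay at 0.94 to 1.41 for Dbp and at 1.54 to 1.77 for Nr1d1, above every control mouse. At 18 µg the changes were 0.31 and 0.35. The control level of Dbp was lower at day 28 than at day 1, where control mice averaged 1.58 and treated mice 1.57, and for Nr1d1 these day 1 means were 1.6 and 1.33. The hour at which lungs were taken is not given in the labels, and its part was not tested. The arrays of control mouse 1 differed for Dbp, at 0.87 on slide 1 and -0.55 on slide 5. Tef and Nr1d2 changed by 0.71 and 0.85 and Arntl, the core activator, by -0.77, with adjusted p of 0.233, 0.0771 and 0.124.

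Only 2 genes fell, of which 1 has a symbol. Hdhd3 lay at 0.14, 0.03 and 0.08 in controls and at -0.73, -0.5, -0.87 and -0.54 in treated mice and fell by 0.74 (adjusted p = 0.00631, and 0.0549 without control mouse 1). Neither fall was called when arrays were centred on their median, which shifted the median change of all genes to 0.1.

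The same dose at day 1, against the 4 control mice of that day, gave 349 called higher (1.5%) and 45 lower (0.193%). Of the 146 genes called at day 28, 47 were also called at day 1, which is 32.2% of the former and 11.9% of the latter, and 140 of the 144 that rose had a day 1 change above 0 (97.2%, against 51.4% of all genes). The reference RNA is common to both days and the control mice are not. All 4 control mice of day 1 had a muscle array, which the day 28 groups did not. The median change of the 144 genes was 1.11 at day 28 and 0.56 at day 1. These genes were selected by their day 28 values, which favours a larger change on that day.

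The difference between the 2 changes was tested for each gene, and 6 of 23256 were called (0.0258%; 898, or 3.86%, at an unadjusted p under 0.05), all with the smaller change at day 28. Saa1 changed by 4.98 at day 1 and 1.79 at day 28, a difference of -3.19 ± 0.56 (SE, adjusted p = 0.0311, limma), and for Timp1 the changes were 3.85 and 0.96, a difference of -2.89 (0.0311). Saa2 changed by 4.2 and 0.54 (difference -3.65 ± 0.34, adjusted p = 2.31e-06), but at day 28 it passed background on 0 of 4 control and 2 of 5 treated arrays, so the size of its day 28 change was not measured. The replication helicase genes Mcm2 and Mcm7 changed by 1.19 and 0.9 at day 1 and by 0.01 and 0.09 at day 28 (adjusted p of the difference 0.013 and 0.034), and Ccdc167 by 0.98 and -0.07 (0.013). The count of 6 was 0 when treated mouse 1 was moved to day 1 or when the signals as processed by the scanner software were used, and between 1 and 28 when a mouse was left out. Saa3 changed by 7.06 at day 1 against 4.41 at day 28, and Slc26a4 by 3.49 against 3.04, and neither difference was called. Several interferon genes had the larger change at day 28. Oas1a changed by 1.17 at day 1 and 2.58 at day 28, and Irf7 by 1.15 and 2.32. Outside the interferon list Ifi27l2a changed by 0.02 and 2.86 and Siglec1 by 0.16 and 1.35, while Cxcl10 changed by 2.3 and 2.24. Of the 18 called members of the list 5 were called at day 1. The list median was 0.66 at day 1 and 1.52 at day 28. For none of Oas1a, Irf7, Ifi27l2a and Siglec1 was the difference called (adjusted p 0.254 to 1). Dbp changed by 0 at day 1 and 1.9 at day 28 (adjusted p of the difference 0.0787).

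**Figure D5:**
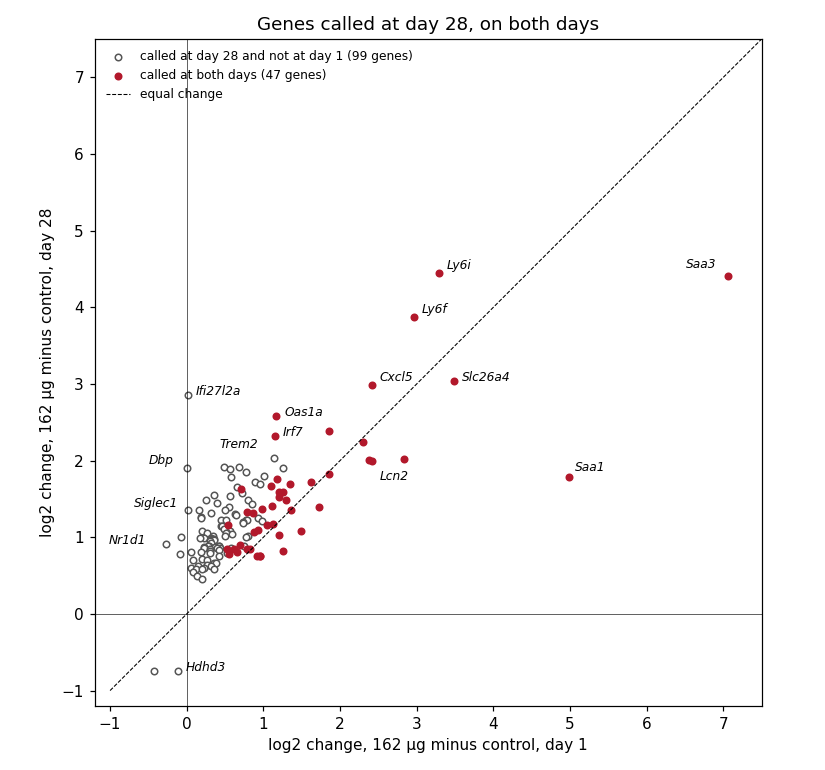
Change at 162 µg against control at day 1 (x axis, log2) and at day 28 (y axis, log2) for the 146 genes called at day 28. Red points are the 47 genes called on both days, open points the others, and the dashed line marks equal change; Saa3 at 7.06 and 4.41 and Saa1 at 4.98 and 1.79 lie below the line, and Ifi27l2a at 0.02 and 2.86 above it.

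At day 28 the lower doses called 0 genes each against the same 3 control mice (limma, all mice in 1 model; 1430 genes, 6.15%, at an unadjusted p under 0.05 for 54 µg and 1006, 4.33%, for 18 µg). Since the 3 comparisons share their controls, their values are set side by side. Of the 144 genes that rose at 162 µg, 89 had a change above 0 at 54 µg and 95 at 18 µg, where 45.5% and 44.2% of all genes did. The median change of the 144 was 0.07 and 0.05 against 1.11, and their selection at 162 µg favours a larger change at that dose. Ly6i changed by 0.6 at 54 µg and 0.16 at 18 µg, Saa3 by 1.09 and 0.91, Cxcl5 by 0.5 and 0.68, Slc26a4 by 0.79 and 0.54, and Gpnmb by 0.92 and 0.26. Oas1a changed by 0.27 and 0, and Irf7 by 0.14 and -0.07. The medians of the interferon list were -0.08 and -0.07, and those of the phagocyte list 0.07 and 0.09. Of the 54 µg mice 3 of 4 had a muscle array, as had 1 of 4 at 18 µg, against 0 of 7 here, and the part of this in the values of these doses was not tested.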

How the data were processed

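Lung RNA of 29 mice was measured on 36 two-colour arrays, and 9 arrays of 7 mice enter the comparison. Per the file headers, the authors scanned the arrays with Agilent Feature Extraction 11.0.1.1 and deposited spot and background intensity for Cy5 and Cy3, signals it had corrected for background and dye, and their log10 ratio. The deposited log2 values carry no statement of their scaling or centring; their columns correlated at 0.986 to 0.997 with the ratios used here, with medians from -0.039 to -0.017. No dye swap was made, so a dye effect on a gene is part of its level and is shared by both groups.

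Median intensities were background-corrected (normexp, offset 50) and loess-normalized within arrays in R 4.3.3 with limma 3.58.1. Spots of a probe were averaged, then the arrays of a mouse, and the brightest probe stood for a gene. Control spots were left out. A gene was tested if, in some group, 3 or more mice had all their arrays well above background in Cy5. limma was fitted with a mean per group over all 29 mice (21 residual degrees of freedom), two-sided, with Benjamini-Hochberg adjustment over all 23256 genes and a threshold of 0.05. Replicate numbers follow accession order. Of 55681 probes 28026 were named through RefSeq (GRCm38.p6).

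Named genes were the 20 largest rises and 12 largest falls among called genes above background on every array of the higher group, up to 5 more that no control array measured, up to 4 called per list and a list of fixed genes; families and further genes were added after their values were seen, as said there. The members, the 37 gene lists and the tests were chosen with earlier results of these data known. The fit was tested on simulated data. Alternatives changed the signal, centring, filter, samples, covariates, slide, weights and probe rule. The result of 1 listed gene is not reported here.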

Additional observations from a re-analysis of the deposited data

Results flagged for a closer look

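For 10 of the 187 sets of 4 treated mice examined, 1 mouse lay so far from the others that its gap, as a share of the whole range, passed Dixon's critical value. Chance alone flags about 1 in 20 such groups. In 5 of the genes treated mouse 1, a mean of 2 arrays, was the low one: Ifit1 at 0.8 against 1.51 to 1.6 in the others, Rtp4 at 1.51 against 2.21 to 2.27, Gbp3 at 2.39 against 2.99 to 3.1, Ifit3 at 2.84 against 3.43 to 3.48 and Irgm1 at 1.01 against 1.34 to 1.38. The same mouse was high in the median of the neutrophil marker list, at 0.56 against 0.03 to 0.12. Treated mouse 2 was high for the class I genes H2-Q5, at 5.21 against 4.49 to 4.59, and H2-Q2, at 3.36 against 2.77 to 2.87, and low for the stress gene Osgin1, at 0.45 against 1.25 to 1.37. Treated mouse 4 was low for Acod1, at -1.98 against -0.97 to -0.87.

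For 6 genes the change at 162 µg differed between the days by the test of the difference itself (limma, day 28 change minus day 1 change): Saa2, whose day 28 level was above background on 0 of 4 control arrays, by -3.65, Saa1 by -3.19, Timp1 by -2.89, Mcm2 by -1.18, Ccdc167 by -1.05 and Mcm7 by -0.82.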

How the results depend on the processing

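Against 146 called genes, 88 were called with the signals as processed by the scanner software, 230 with the 2 groups alone in the model, 234 without the muscle arrays, 600 with array quality weights and 53 with treated mouse 1 by its slide 1 array; leaving out 1 mouse gave 65 to 128. The other 12 alternatives besides leaving out a mouse gave 98 to 216. All 146 kept their sign wherever they were tested. As the groups did not overlap between mice for these genes, leaving out a mouse could not turn a sign. Their selection by these values favours the same sign under the other alternatives. The 4 alternatives that take mouse 1 of a group by 1 array were chosen after seeing the data. Of the 126 called genes with a symbol, 51 stayed called when any mouse was left out and 30 under all 24 alternatives that tested them.

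Against 6 called differences between days, 0 were called with scanner-processed signals and with the mouse of conflicting labels moved to day 1, 3 with median centring, 2 with only the groups compared, 15 without the muscle arrays, 50 with slide as a block, 38 with mouse as a random block and 465 with array quality weights; leaving out 1 mouse gave 1 to 28. For all these counts the cause was not tested.

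The sign turned only for genes that were not called. Cd5l was at -0.39 with scanner-processed signals, -0.09 with the slide block and -0.03 with treated mouse 1 by slide 1, and -0.05 to 0.09 without a mouse. Scd1 was at 0.14 with median centring, 0 with covariates, 0.02 with the slide block, 0.09 with treated mouse 1 by slide 5, 0.02 with control mouse 1 by slide 1, and -0.32 to 0.2 without a mouse. Median centring, which moved the median of all genes by 0.1, put Sftpc at 0.08 and Scgb1a1 at 0. Mt2 was at -0.01 with the slide block and with the random block, -0.03 with the mouse moved, -0.02 with the deposited value table, -0.02 with control mouse 1 by slide 5, and -0.1 to 0.12 without a mouse. Leaving out a mouse gave Chil3 -0.03 to 0.56, Hmox1 -0.02 to 0.39 and Retnla -0.06 to 0.52.

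No paired analysis was possible because, for mice, the labels give no replicate numbers, and those used follow accession order. Slides did hold both groups: with slide as a block 208 genes were called, 138 of them among the 146, and 141 of the 146 had the same sign within all 4 shared slides. The count of 141 is favoured by the selection of these genes on the same arrays. Dim spots, 3 and 4 mice per group and the 2 unlike arrays of treated mouse 1 limit what can be called.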
